A study of Rattus norvegicus with 102 samples.

Results

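The transcripts of 6 anterior pituitary hormone genes were followed in rat hippocampus. The genes were Prl (prolactin), Gh1 (growth hormone), Cga (the alpha subunit shared by the glycoprotein hormones), Pomc (the precursor of corticotropin, the melanocortins and beta-endorphin), Lhb (the beta subunit of luteinizing hormone) and Tshb (the beta subunit of thyrotropin). They were taken by exact gene symbol, and each matched 1 row, so 6 of the 26284 genes in the Illumina and WT tables and of the 26341 genes in the Ion Proton table are described here. Levels of several of these genes by age and cognition were known when they were chosen, so those levels are given as a description, with no test, while differences between subfields were tested.

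The animals were 34 male Fisher 344 rats. There were 10 young rats of 5 to 6 months and 24 aged rats of 17 to 22 months. All rats were trained in a water maze, in which they learn the place of a hidden platform, and the aged rats were classed by a probe trial as 12 unimpaired and 12 impaired. The labels name no transgene and no drug. From 1 hippocampus of each rat the CA1 and CA3 fields and the dentate gyrus (DG) were dissected, which gave 3 tissue samples per rat, each sequenced as poly-A RNA on the Illumina and the Ion Proton platform and once more in a table named WT, whose library type is not given in the sources used here. The 3 tables repeat the same tissue and are not separate animals, and each was normalised on its own.

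The pituitary makes these hormones in separate cell types under control of the hypothalamus. Lactotrophs make prolactin and somatotrophs make growth hormone, and both cell types, with the thyrotrophs, depend on the factor Pou1f1 (Pit-1). Corticotrophs make Pomc, which neurons of the arcuate nucleus also make, and gonadotrophs and thyrotrophs pair Cga with Lhb or Tshb. Prolactin and growth hormone signal through Prlr and Ghr to the kinase Jak2 and the Stat5 factors, and receptors for both hormones are known in brain.

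The values are normalised read counts, that is, gene counts divided by 1 size factor per library, from which whole reads were recovered. Total reads ranged from 3.25 to 42.8 M (mega, the usual unit of sequencing depth) per library in the Illumina table, from 4.47 to 21.4 M in the Ion Proton table and from 3.54 to 20.6 M in the WT table. A gene was counted as present in a library with more than 3 reads. In 16 libraries from 14 rats the subfield marker genes lay nearer to another subfield than the labelled one in both poly-A tables, and 12 of these were labelled CA3. Neuron markers (Snap25, Syt1, Rbfox3) were high in every library, with a summed level of at least 23812 normalised reads in the Illumina table.

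The regions upstream of the start sites of 3 of these genes are shown because Prl and Tshb belong to cell types that need Pou1f1, whereas Pomc is made in cells without it. The RefSeq promoter table (build GRCr8) held an entry for 5 of the 6 genes, with none for Gh1. Each sequence is the 250 bases before the annotated start, written along the gene's strand. Capitals mark ATGNATA, a form of the Pou1f1 site, and TATAAA, the TATA box, on either strand, and the matches of the motifs did not overlap.
Prl, chr17:38298218-38298467, minus strand: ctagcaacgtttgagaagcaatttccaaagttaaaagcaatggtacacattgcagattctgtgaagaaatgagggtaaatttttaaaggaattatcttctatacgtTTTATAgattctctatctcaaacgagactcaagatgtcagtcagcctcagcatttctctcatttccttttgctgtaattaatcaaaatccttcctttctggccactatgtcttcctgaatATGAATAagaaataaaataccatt
Tshb, chr2:192918055-192918304, minus strand: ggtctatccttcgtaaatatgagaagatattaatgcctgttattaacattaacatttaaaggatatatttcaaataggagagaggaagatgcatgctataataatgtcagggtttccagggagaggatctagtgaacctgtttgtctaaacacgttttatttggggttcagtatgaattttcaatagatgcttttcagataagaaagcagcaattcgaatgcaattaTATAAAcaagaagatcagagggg
Pomc, chr6:32659103-32659352, plus strand: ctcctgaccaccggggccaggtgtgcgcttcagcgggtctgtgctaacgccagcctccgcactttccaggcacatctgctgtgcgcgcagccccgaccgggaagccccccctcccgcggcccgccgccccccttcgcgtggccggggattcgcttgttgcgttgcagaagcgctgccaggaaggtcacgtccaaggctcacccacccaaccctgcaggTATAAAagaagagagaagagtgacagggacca
In the Prl window ATGNATA lay at positions -24 to -18 from the annotated start and TATAAA on the opposite strand at -144 to -139. The Tshb window held TATAAA at -23 to -18 and the Pomc window at -32 to -27, with no ATGNATA in either. Among 33469 promoter windows of this length, 8.73% held ATGNATA and 12.9% held TATAAA. These matches describe the letters of the windows only.

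Prl (ENSRNOG00000017374, chromosome 17 in rn5) was close to 0 in young rats and reached up to 374 normalised reads in aged impaired rats in the Illumina table, as the plot of every library shows. In the Illumina table the 30 young libraries held 2 Prl reads among 545 M, the 36 libraries of aged unimpaired rats 57 reads among 542 M, and the 36 libraries of aged impaired rats 899 reads among 528 M. This was 0.00367, 0.105 and 1.70 RPM (reads per M library reads). Ion Proton libraries gave 0 reads in young rats, which allows up to 0.00876 RPM, 0.0986 RPM in unimpaired and 1.795 RPM in impaired rats. In WT libraries the levels were 0.00393, 0.198 and 3.71 RPM. This limit is that of 3 reads and covers counting error only. The CA3 library of rat R2233 held 292 of the 899 reads of impaired rats in the Illumina table, 298 of 664 in the Ion Proton table and 528 of 1113 in the WT table. The order of the groups was the same in each table.

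**Figure D1:**
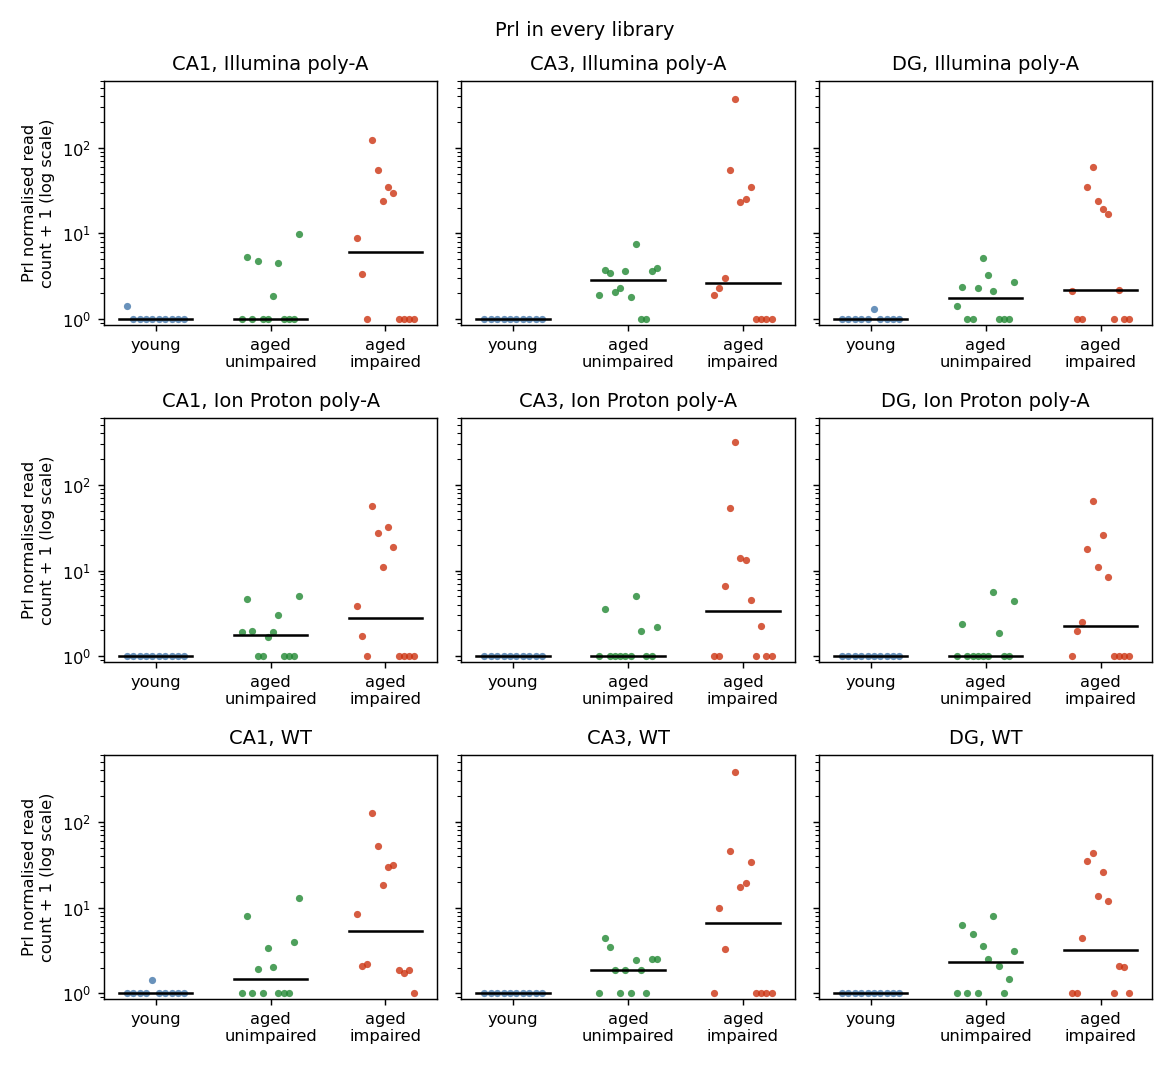
Prl normalised read count plus 1 (log axis) in every library, with subfields in columns, tables in rows, 1 point per rat and black lines at group medians. Young rats sit at or near 1 in every panel, and the aged impaired rats spread from counts of 0 up to 386, with the highest point in CA3 of the WT table.

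Across the 12 impaired rats, Prl in CA1 ranged from 0 to 121 normalised reads in the Illumina table, with a median of 5.05 and a mean of 22.5 ± 35.6 (SD, n = 12). In CA3 it ranged from 0 to 374 with a median of 1.64 and a mean of 42.7 ± 106 (SD, n = 12), and in DG from 0 to 59.0 with a median of 1.16 and a mean of 12.6 ± 18.6 (SD, n = 12). In the 12 unimpaired rats the highest values were 8.72 (CA1), 6.46 (CA3) and 4.204 (DG), and the means were 1.77 ± 2.78, 2.00 ± 1.77 and 1.03 ± 1.28 (SD, n = 12). The highest young values were 0.440, 0 and 0.315 in the same order. The impaired and unimpaired groups overlapped in every subfield, because several impaired rats were at 0, and in CA3 the impaired median was below the unimpaired median of 1.89. In CA1, CA3 and DG the ratio of impaired to unimpaired means was 12.7, 21.4 and 12.2. Without the libraries nearer to another subfield, the CA3 means were 59.9 in 8 impaired and 1.54 in 8 unimpaired rats. Without the highest impaired library of each subfield, which came from rat R2231 in CA1 and rat R2233 in CA3 and DG, the ratios were 7.68, 6.33 and 8.16.

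The high Prl values belonged to a few rats and were shared by the subfields of a rat. In 4 impaired rats (R2231, R2233, R2235 and R2238) Prl exceeded 3 reads in all 3 subfields in all 3 tables, and no young or unimpaired rat did so in any table. Another impaired rat, R9781, met this in the Illumina and WT tables and in 2 of 3 subfields in the Ion Proton table.
In rat R2233 Prl was 54.3 in CA1, 374 in CA3 and 59.0 in DG in the Illumina table. In rat R2231 it was 121, 54.6 and 33.5 in the same order. These were the only rats with a Prl value above 50 in any table.
In rat R2235 the values lay closer together, at 22.9, 22.4 and 23.0, and in rat R2238 they were 33.4, 24.3 and 18.2. In rat R9781 they were 28.5, 33.8 and 15.6. The CA3 and DG libraries of rat R9781 were among those with markers nearer to each other's subfield, so which of its values is CA3 is uncertain.
Among the 4 rats the peak in the Illumina table was in CA1 in 2, in CA3 in 1 and in DG in 1, the last being R2235, at 22.96 in DG beside 22.94 in CA1. The Ion Proton table had the peak in CA1 in 2 rats and in CA3 in 2, and the WT table in CA1 in 3 and in CA3 in 1.

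The same libraries gave the high values when the tissue was sequenced again. The CA3 library of rat R2233 read 374, 315 and 386 in the Illumina, Ion Proton and WT tables, and the CA1 library of rat R2231 read 121, 55.8 and 126. The CA3 library of rat R9781 was an exception, at 33.8, 3.54 and 33.5. Prl exceeded 3 reads in 21 Illumina libraries and 19 Ion Proton libraries, of which 16 were shared, 76.2% of the first list and 84.2% of the second. The WT table had 20 such libraries, and 15 libraries were in all 3 lists.

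**Figure D2:**
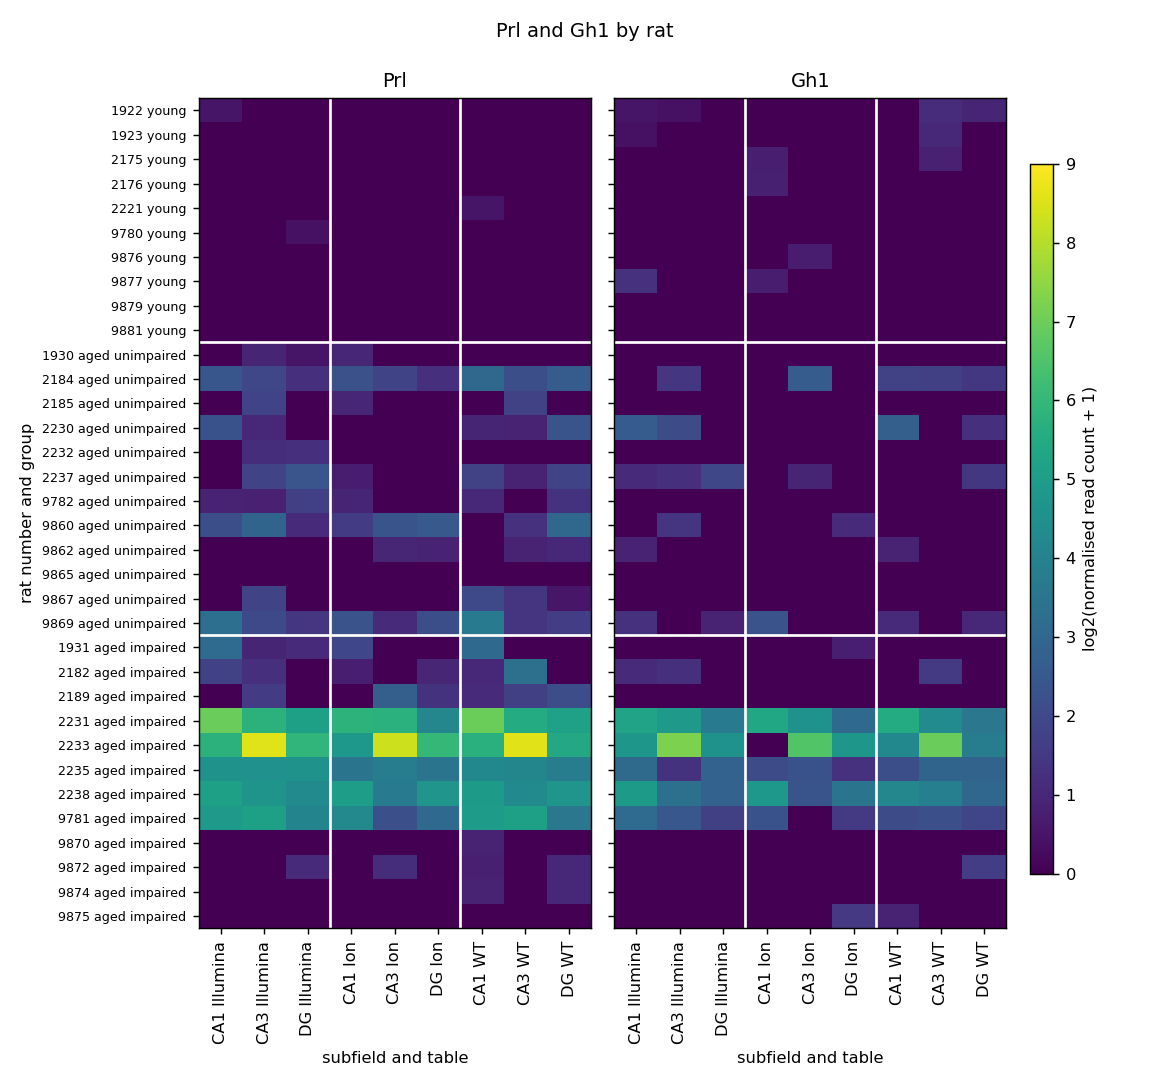
Heat map of Prl (left) and Gh1 (right) as log2(normalised read count + 1), with 1 row per rat, grouped by white lines into young, aged unimpaired and aged impaired, and 1 column per subfield and table. The bright rows are the impaired rats R2231, R2233, R2235, R2238 and R9781, which are bright for Prl in every table, and for Gh1 most clearly in R2231, R2233 and R2238.

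At lower levels, Prl reads were also spread over aged unimpaired rats. At least 1 Prl read was found in some library of 11 of 12 unimpaired rats, 11 of 12 impaired rats and 3 of 10 young rats. Unimpaired rats with more than 3 reads were 4 of 12, and their highest value in any table was 12.0 in the CA1 library of rat R9869 in the WT table, a library with markers nearer to another subfield. Every such rat was below the values of the 5 impaired rats named above in its own subfield of the Illumina table.

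The rat numbers in the labels fall into those below 9000 and those from 9000 up, and both series hold every group. The rats came from 2 sites, and the labels give no site, cohort or date for a single rat. Among rats numbered below 9000, Prl exceeded 3 reads in some library in 7 of 7 impaired rats, 1 of 6 unimpaired rats and 0 of 5 young rats. Among rats numbered from 9000, the counts were 1 of 5 impaired, 3 of 6 unimpaired and 0 of 5 young rats. Mean Prl in CA3 in the Illumina table was 68.4 ± 136 (SD, n = 7) in impaired and 1.85 ± 0.856 (SD, n = 6) in unimpaired rats of the lower numbers, and 6.77 ± 15.1 (SD, n = 5) and 2.15 ± 2.48 (SD, n = 6) in those of the higher numbers. Without the CA3 library of R2233 the impaired mean of the lower series was 17.6, beside a median of 22.4 over all 7 rats. In the higher series the impaired mean rested on rat R9781 alone, since the other 4 impaired rats were at 0.

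Gh1 (ENSRNOG00000011207, chromosome 10) followed the same rats. In the Illumina table it held 4 reads in young, 18 in unimpaired and 314 in impaired rats, or 0.00734, 0.0332 and 0.594 RPM. In the Ion Proton table the levels were 0.0117, 0.0348 and 0.727, and for WT libraries 0.0157, 0.0613 and 1.23 RPM. The order of the groups was again the same in each table. The CA3 library of rat R2233 held 116 of the 314 reads of impaired rats in the Illumina table, 88 of 269 in the Ion Proton table and 167 of 369 in the WT table. The ratio of impaired to unimpaired means of Gh1 in CA3 of the Illumina table was 24.7, and 6.17 without that library. Among rats numbered below 9000 the mean in this subfield and table was 26.9 ± 54.5 in impaired (n = 7) and 1.03 ± 1.30 in unimpaired rats (SD, n = 6), and among those from 9000 it was 0.896 ± 2.00 (n = 5) and 0.269 ± 0.660 (SD, n = 6).
In impaired rats the Illumina level ranged from 0 to 37.6 in CA1, with a median of 0.581 and a mean of 9.10 ± 13.7 (SD, n = 12). In CA3 the range was 0 to 148 with a median of 0.645, and in DG 0 to 22.8 with a median of 0. The highest unimpaired values were 5.09, 3.23 and 2.80 and the highest young values 1.42, 0.311 and 0 in the same order, so that the groups overlapped at 0.

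The highest Gh1 value was in the library with the highest Prl value. The CA3 library of rat R2233 held 148, 93.1 and 122 normalised reads of Gh1 in the Illumina, Ion Proton and WT tables. The CA1 library of rat R2231 held 37.6, 41.6 and 45.5. The CA1 library of rat R2233 differed between tables, with 26.2 and 17.4 in the Illumina and WT tables and 0 in the Ion Proton table.
In R9781 Gh1 was 7.85, 4.48 and 2.23 in CA1, CA3 and DG in the Illumina table, all above 3 reads, but did not exceed 3 reads in any subfield in the other tables. At least 1 Gh1 read was found in some library of 6 of 10 young, 6 of 12 unimpaired and 9 of 12 impaired rats.
Gh1 exceeded 3 reads in all 3 subfields of 4 impaired rats with Illumina, 2 with Ion Proton and 4 with WT libraries, and in no other rat.

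Prl and Gh1 reads were counted together in the libraries that held more than 3 reads of each. There were 14 such libraries in the Illumina table, all from 5 impaired rats, and Prl reads exceeded Gh1 reads in each. Gh1 reads came to 36.6% of Prl reads over these libraries, with a median of 34.7% and a range of 13.2% to 86.1% per library. In the CA3 library of rat R2233 the share was 39.7%, and in the 3 libraries of rat R9781 it was 27.5%, 13.2% and 14.3%. Both were found in 11 libraries of the Ion Proton table, with a pooled share of 43.6%. Of these 10 were from impaired rats and had more Prl than Gh1 reads, and the CA1 library of the unimpaired rat R9869 had 4 reads of each. The pooled share was 35.01% over 12 libraries of the WT table, all from impaired rats and with more Prl than Gh1 reads. No allowance was made for transcript length.

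**Figure D3:**
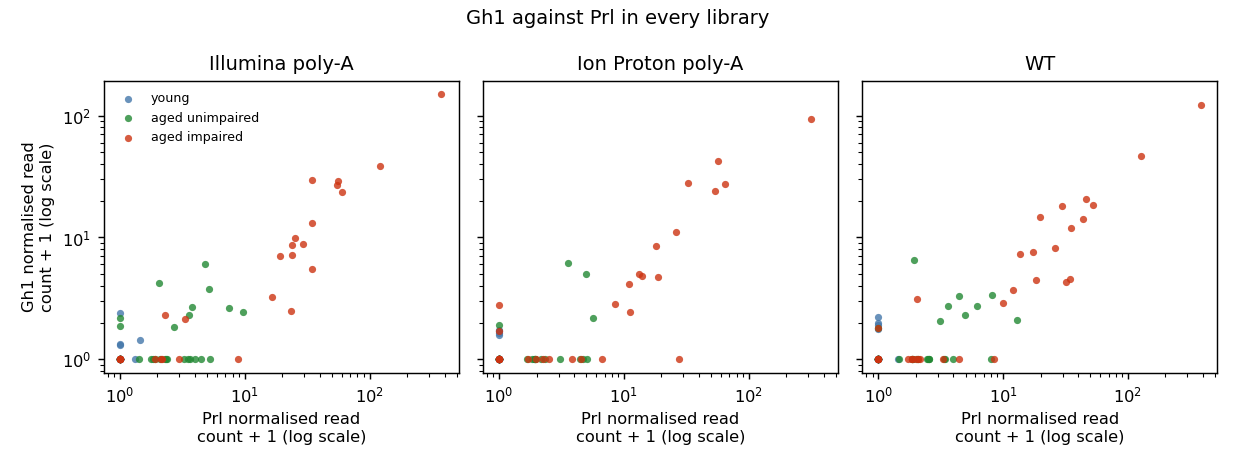
Gh1 against Prl, both as normalised read count plus 1 on log axes, with 1 point per library and 1 panel per table. Libraries of impaired rats extend along a rising line to the CA3 library of rat R2233 at the upper right of each panel, while young libraries stay at the lower left.

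Cga (ENSRNOG00000009269, chromosome 5) was at the limit of detection. More than 3 reads were found in 2 Illumina, 4 Ion Proton and 2 WT libraries. In the Illumina table these were CA3 of R2233 and DG of R9860, and in the WT table CA1 of R2231 and CA3 of R2233. In the Ion Proton table they were CA3 of R2231, R2233 and R9860 and DG of R2237. R2231 and R2233 are the impaired rats with the highest Prl, whereas R2237 and R9860 were unimpaired. The highest Illumina value was 7.68 normalised reads (6 reads) in the CA3 library of rat R2233, where the Ion Proton table gave 5.29 and the WT libraries 2.93. Group sums in the Illumina table were 8 reads in young, 11 in unimpaired and 14 in impaired rats. The highest Ion Proton value, 12.2 (15 reads), was in the CA3 library of the unimpaired rat R9860, where the Illumina table held none. No group difference in Cga could be read at this depth.

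Pomc (ENSRNOG00000012686, chromosome 6) was present in nearly every library, with more than 3 reads in 97 Illumina, 93 Ion Proton and 96 WT libraries, young rats included. In CA3 of the Illumina table it ranged from 8.59 to 29.3 in young rats (median 13.6, mean 15.2 ± 5.59, SD, n = 10), from 2.49 to 38.8 in unimpaired rats (median 15.5, mean 19.1 ± 11.2, SD, n = 12) and from 4.25 to 67.8 in impaired rats (median 30.7, mean 30.6 ± 18.6, SD, n = 12). The groups overlapped along most of their range. Without the libraries nearer to another subfield the CA3 means were 14.2, 15.7 and 30.5.
In CA1 the means were 14.6 ± 4.54, 12.5 ± 4.43 and 17.0 ± 8.78, and in DG 13.9 ± 4.03, 13.5 ± 4.18 and 17.7 ± 10.8 in young, unimpaired and impaired rats (SD, n = 10, 12 and 12).
The highest Pomc value, 67.8, was again in the CA3 library of rat R2233, followed by 52.2 and 44.4 in the CA3 and DG libraries of rat R2235. Over all aged rats the ratio of impaired to unimpaired means was above 1 in each subfield of each table, from 1.08 in CA3 of the Ion Proton table to 2.169 in CA1 of that table. Without the highest impaired library it was between 1.01 and 2.06. Among rats numbered from 9000 the direction turned in part, with Pomc means of 10.7 ± 5.56 in impaired (n = 5) and 13.1 ± 4.48 in unimpaired rats (SD, n = 6) in DG of the Illumina table, of 25.9 ± 8.46 and 33.8 ± 9.05 in CA3 of the Ion Proton table, and of 10.6 ± 3.87 and 16.7 ± 8.54 in DG of that table. The impaired mean was the higher one in every other combination of series, subfield and table.

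Lhb (ENSRNOG00000047040, chromosome 1) and Tshb (ENSRNOG00000016793, chromosome 2) were present at low levels in all groups and did not follow Prl. Lhb exceeded 3 reads in 79 Illumina libraries. Its Illumina means in CA3 were 10.1 ± 4.66 in young (n = 10), 8.16 ± 3.11 in unimpaired (n = 12) and 7.37 ± 3.47 in impaired rats (SD, n = 12). The ratio of impaired to unimpaired means of Lhb ran from 0.626 in DG of the WT table to 1.74 in CA3 of the Ion Proton table.
Tshb exceeded 3 reads in 52 Illumina, 40 Ion Proton and 81 WT libraries. Its Illumina means in CA3 were 6.75 ± 3.89 in young (n = 10), 4.19 ± 2.45 in unimpaired (n = 12) and 7.12 ± 6.78 in impaired rats (SD, n = 12). The ratio of impaired to unimpaired Tshb means in CA3 was 1.70 in the Illumina, 0.482 in the Ion Proton and 0.907 in the WT table, so its direction depended on the table.
In the CA3 library of rat R2233, where Prl, Gh1, Cga and Pomc all had their highest Illumina values, Lhb was 12.8 and Tshb 5.12, both within the range of the young CA3 libraries. The 12.8 was the highest Lhb value of the impaired CA3 libraries, and the highest of the impaired CA1 libraries, 10.3, was in R2231. In CA1 and CA3 the highest impaired Lhb values were in R9870 and R1931 in the Ion Proton table and in R9781 and R2231 in the WT table.

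**Figure D4:**
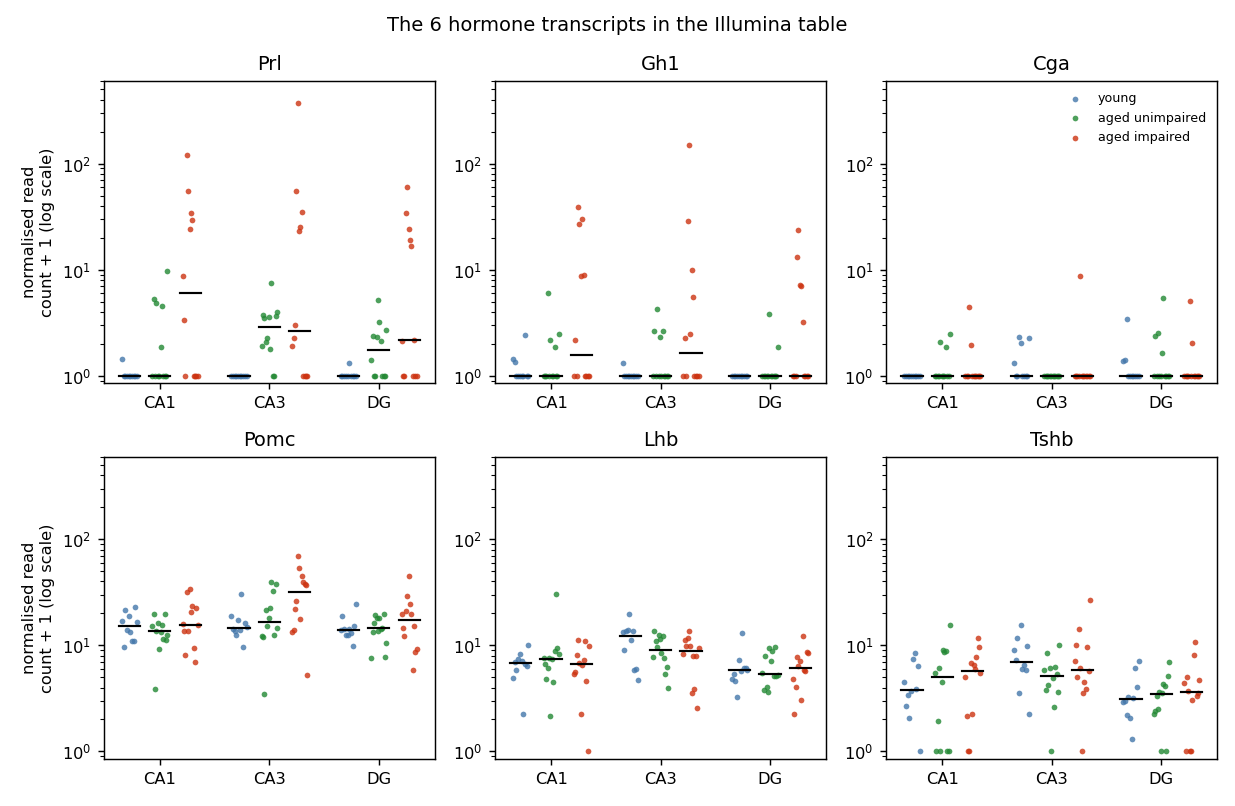
Normalised read count plus 1 (log axis) of the 6 hormone transcripts in the Illumina table, by subfield and group, with 1 point per rat and black lines at medians. Prl and Gh1 stand near 1 in young rats and reach counts of 374 and 148 in impaired rats, whereas Pomc, Lhb and Tshb are found in every group, with Pomc reaching 67.8 in CA3 of impaired rats and 29.3 in CA3 of young rats.

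The gene neighbourhood differed between the members, which bears on how their reads can be assigned. In the RefSeq annotation of GRCr8, Prl, Gh1 and Cga overlapped no other gene. Tshb lay wholly inside Tspan2, which encodes a tetraspanin of oligodendrocytes, Lhb lay inside Saxo3, and Pomc overlapped Efr3b at its end. Whether counting used the strand is not given in the sources used here, so reads of Tshb, Lhb and Pomc cannot be told apart from those of the overlapping gene with certainty. Tspan2 had a mean of 1962 normalised reads in the Illumina table, and its levels correlated with Tshb at r = 0.51 there and 0.41 in the Ion Proton table over the libraries of 34 rats. Efr3b (mean 1320) correlated with Pomc at 0.14 and 0.12. Saxo3 was not matched in the tables.

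The genes most like each member were ranked by the smaller of the 2 poly-A correlations (Pearson's r of log2 values over all libraries of a table, among 17074 genes with more than 3 reads in at least 5 libraries of each table). These are descriptions, since the libraries of a rat share its tissue and all libraries share depth effects. For Prl the first gene was Gh1, with r = 0.90 in the Illumina and 0.85 in the Ion Proton table. Gh1 exceeded 3 reads in 15 Illumina and 12 Ion Proton libraries, 14 and 10 of them from impaired rats. It passed the filter only through impaired rats, and this r rests on those few libraries, whose levels were known when the genes were chosen. The second of the genes that passed this filter was Pomc, with 0.49 and 0.37. The next 8 genes (Fcgbp, Fcgr2a, Emr1, Gpr84, Acr, C4a, Alox15b and Asb2) had a smaller r of 0.29 or less, too weak to be read in counts this sparse.
Between Prl and Lhb r was 0.095 and -0.00095, and between Prl and Tshb -0.086 and -0.085. Between Prl and Cga r was 0.37 and 0.40, and Cga, with more than 3 reads in 2 Illumina and 4 Ion Proton libraries, did not pass the filter and so was not ranked.
For Pomc the closest genes were Catsperg1 (0.55 and 0.52) and Chkb (0.47 and 0.58), and neither Prl nor Gh1 was among its first 10. Lists for Lhb and Tshb were added after their values were seen. Lhb was most like Ccdc37 (0.56 and 0.52) and Ccdc114 (0.57 and 0.52), genes of motile cilia, and Folr1 (0.50 and 0.52), a choroid plexus marker. Tshb was most like Clic4 (0.54 and 0.59) and Oxsr1 (0.58 and 0.54), followed by Mal (0.55 and 0.53), a myelin gene.

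**Figure D5:**
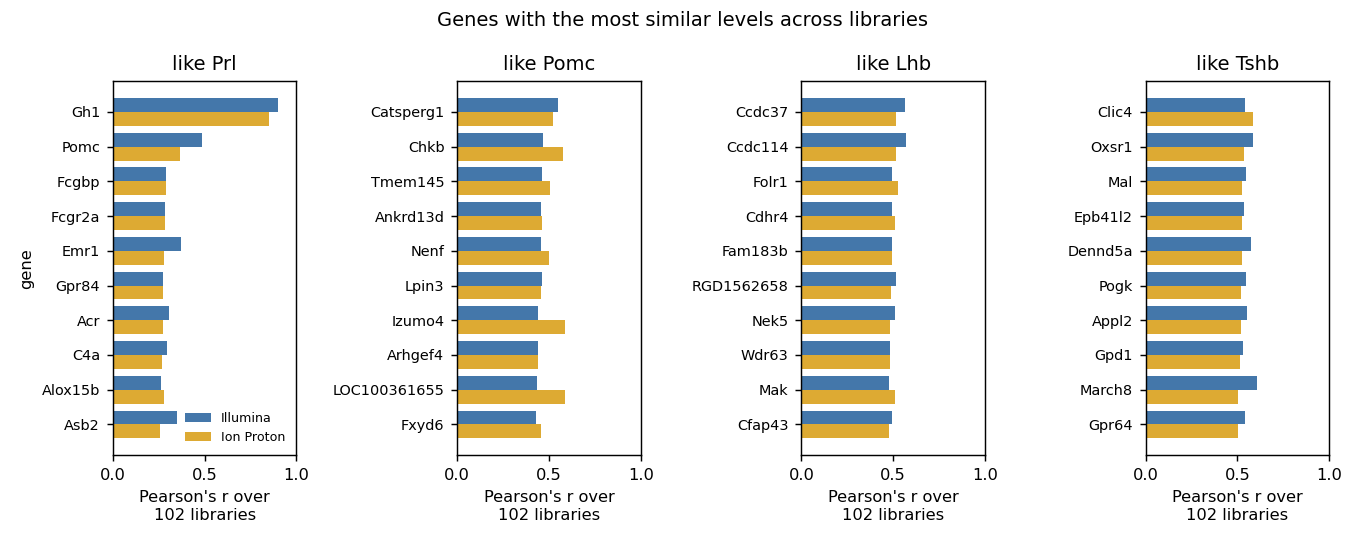
The 10 genes most like Prl, Pomc, Lhb and Tshb, with bars for Pearson's r of log2 values over all libraries in the Illumina (blue) and Ion Proton (yellow) tables. For Prl the bars fall from 0.90 and 0.85 at Gh1 to below 0.40 for every gene after Pomc, while the other 3 lists decline slowly.

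Differences between subfields were tested with limma in all genes, and a gene was called with an adjusted p under 0.05 in both poly-A tables in the same direction. Of the members, only Pomc passed the filter of a mean of 10 normalised reads. It was not called in CA1 against CA3 (log2 difference -0.41 ± 0.17, SE, limma adjusted p = 0.0544 in the Illumina table, and -0.60 with adjusted p = 0.121 in the Ion Proton table). On the log2 scale Pomc in CA1 minus DG was -0.037 ± 0.17 (SE, limma adjusted p = 0.868), and in CA3 minus DG it was 0.37 ± 0.17 (SE, limma adjusted p = 0.0589). Of all genes tested, 14.1%, 26.4% and 27.9% were called in these comparisons.
In the fit with no filter all 6 members were tested, and the only call was Lhb in CA3 against DG, where it was higher in CA3 by 0.56 ± 0.17 on the log2 scale (SE, limma adjusted p = 0.00540) in the Illumina and by 0.82 (adjusted p = 0.0314) in the Ion Proton table. Without the libraries nearer to another subfield this Lhb difference was 0.72 and 1.08 (limma adjusted p = 0.00177 and 0.00915). In the fit with no filter on all libraries, 17.0% of genes were called in CA3 against DG. The shares were 15.7% in CA1 against DG and 8.34% in CA1 against CA3. A single call among the 6 members is close to the first of these shares. Lhb lies inside Saxo3 and use of strand is unknown, so the difference cannot be assigned to Lhb with certainty. Members were read in the fit with no filter after seeing the data. The Illumina mean of Lhb was 6.36 ± 4.80 for CA1, 8.46 ± 3.80 for CA3 and 5.29 ± 2.44 for DG (SD, n = 34).
Tshb was higher in CA3 than in DG in the Illumina table by 0.88 ± 0.25 (SE, limma adjusted p = 0.00271), with 0.44 and an adjusted p of 0.291 in the Ion Proton table, so it was not called.
For Prl the Illumina log2 differences were -0.15 ± 0.46 (CA1 minus CA3), 0.22 ± 0.46 (CA1 minus DG) and 0.37 ± 0.46 (CA3 minus DG, SE), each smaller than its error. With the rat as a replicate block the SE fell to 0.16, and CA3 minus DG had a limma adjusted p of 0.0547 in the Illumina table and, for a difference of 0.10, of 0.684 in the Ion Proton table. The differences of Gh1 were 0.11, 0.35 and 0.25 with an SE of 0.35. Paired within rats, CA1 minus DG of Gh1 had a limma adjusted p of 0.0234 in the Illumina table and of 0.915 in the Ion Proton table, so it was not called. A subfield preference of Prl or Gh1 present in both tables was not detectable.

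The receptors differed in level. Ghr, the growth hormone receptor, exceeded 3 reads in every Illumina library, with means from 151 ± 32.4 in CA1 of impaired rats to 238 ± 25.7 in DG of young rats (SD, n = 12 and 10). It was lower in CA1 than in DG by 0.49 ± 0.063 (SE, limma adjusted p = 1.41e-10) and lower in CA3 than in DG by 0.30 ± 0.063 (SE, limma adjusted p = 3.69e-05), and both differences were called. Prlr, the prolactin receptor, was low, exceeding 3 reads in 1 to 6 Illumina libraries of each group and subfield, with group medians between 1.30 and 3.98 normalised reads. Its 2 highest values, 254 and 207, were in the CA1 libraries of the unimpaired rat R9865 and the impaired rat R9870, which also held the highest summed levels of choroid plexus markers in their groups, 130843 and 156219 normalised reads. Choroid plexus is known to express Prlr. Rat R9865 had no Prl read in any table, and R9870 had 1, in CA1 of the WT table. Ghr and Prlr are described here as the receptors of Gh1 and Prl, after their values were seen.

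Of 43 genes in lists of hormone receptors, receptor signalling, hormone processing and hypothalamic control, 30 passed the filter in the subfield comparisons. In CA1, 2 were called higher and 7 lower than in CA3, and 7 higher and 7 lower than in DG. In CA3, 6 were called higher and 7 lower than in DG. These are 9, 14 and 13 of 30, beside 14.1%, 26.4% and 27.9% of all genes.
The largest mean differences were those of Drd2, the dopamine receptor through which prolactin release is restrained in the pituitary, Vip, a neuropeptide of interneurons, and Socs2, a feedback inhibitor of growth hormone signalling. The medians of Drd2 were 46.8 (CA1), 49.5 (CA3) and 18.4 (DG), and it was higher in CA1 than DG by 1.36 ± 0.21 (SE, limma adjusted p = 3.90e-08). Vip was higher in CA1 than DG by 1.17 ± 0.15 (SE, limma adjusted p = 1.57e-10). Socs2 had means of 44.1 ± 13.2 in CA1, 89.4 ± 27.0 in CA3 and 83.0 ± 16.9 in DG (SD, n = 34), and CA1 was lower than CA3 by 0.99 ± 0.096 (SE, limma adjusted p = 1.01e-14).
By age, a gene was called with p under 0.01 in the Illumina table and a one-sided p under 0.05 in the Ion Proton table. In CA1 0 of 30 listed genes were called, in CA3 0 of 29 and in DG 1 of 29, beside 0.832%, 0.393% and 1.07% of all genes. At an unadjusted limma p under 0.05 in the Illumina table, 4, 2 and 4 listed genes passed, beside 6.15%, 3.31% and 5.20% of all genes at that threshold. The called gene was Stat3, a transcription factor of cytokine signalling, which was higher in aged DG by 0.15 ± 0.040 (SE, limma adjusted p = 0.110) and by 0.18 in the Ion Proton table. In CA1 the count was 1 in place of 0 under 2 alternatives. With total reads in place of the size factors the gene was Ghr, lower in aged CA1 by a log2 difference of -0.24 ± 0.087 (SE, limma adjusted p = 0.481), and with edgeR it was Prlr (log2 difference 3.36, edgeR adjusted p = 0.406), whose highest CA1 values, 254 in R9865 and 207 in R9870, stood in the libraries with the highest choroid plexus sum of the unimpaired and of the impaired group.
Between impaired and unimpaired rats 0 listed genes were called, of 30 tested (CA1), 30 (CA3) and 28 (DG), beside 0.620%, 0.0211% and 0.121% of all genes, with 2, 0 and 2 at an unadjusted limma p under 0.05, beside 811 of 14205, 199 of 14232 and 539 of 14011 genes (5.71% and 3.85% in CA1 and DG) at that threshold.

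Other genes of the pituitary were checked in the same libraries. Of 10 such genes (Pou1f1, Pitx1, Lhx3, Tbx19, Ghrhr, Gnrhr, Trhr, Fshb, Nr5a1 and Pax7), Pax7 exceeded 3 reads in no Illumina or Ion Proton library. Pou1f1, which lactotrophs and somatotrophs need, exceeded 3 reads in 1 young, 1 unimpaired and 3 impaired Illumina libraries, and its highest Illumina value, 6.40 normalised reads (5 reads), was in the CA3 library of rat R2233. The Ion Proton table held 1 read there, and in that table Pou1f1 exceeded 3 reads in 1 young, 2 unimpaired and 0 impaired libraries. Trhr, Tbx19, Gnrhr and Lhx3 exceeded 3 reads in 101, 100, 84 and 63 Illumina libraries, young rats included, so the list is not silent in hippocampus.
The summed list ranged from 51.3 to 393 in young, 43.4 to 333 in unimpaired and 55.5 to 482 in impaired rats in the Illumina table, with the highest sum in the CA3 library of R2231, and was 146 in the CA3 library of rat R2233, rank 56 from the highest of all libraries. In the Ion Proton table it reached 274 in young, 190 in unimpaired and 476 in impaired rats, with the highest sum in the CA3 library of R9781, and was 111 in the CA3 library of R2233, rank 51. Trhr alone held 399 of the 482 in R2231 and 357 of the 476 in R9781. In the Illumina CA3 library of R2233, Trhr, Gnrhr and Tbx19 held 64.0, 46.1 and 16.6 of the 146. The sums and ranks thus rest mainly on genes found in most libraries, young rats included. Fshb, the beta subunit of follicle-stimulating hormone, had its highest Ion Proton value, 49.5 (42 reads), in the CA3 library of R9781. In that library and table Prl had 3 reads and Gh1 0. In the Illumina table the highest Fshb value, 9.69, was in the CA3 library of the unimpaired rat R9860, and no impaired CA3 library exceeded 8.49. Fshb exceeded 3 reads in 18 Illumina libraries (5 young, 5 unimpaired and 8 impaired) and 8 Ion Proton libraries (2, 1 and 5). Pitx1, a transcription factor of the anterior pituitary, exceeded 3 reads in 6 Illumina libraries (2 young, 1 unimpaired and 3 impaired) and 4 Ion Proton libraries (1, 1 and 2). Its highest values were in CA3 libraries, 6.65 in R2231 in the Illumina table and 8.10 (10 reads) in R2238 in the Ion Proton table. The CA3 library of R2233, where Prl was highest, held 1.28 (1 read) and 2.12 (2 reads) of Pitx1. The CA1 library of R2231 held 0 in both tables. Ghrhr, the receptor of growth hormone-releasing hormone, was highest in the CA1 library of the young rat R2175 in the Illumina table, at 3.62. In the Ion Proton table it was highest in the CA3 library of R2238, at 4.86 (6 reads). Nr5a1, a factor of gonadotrophs, exceeded 3 reads in 14 Illumina and 16 Ion Proton libraries. Fshb, Pitx1, Ghrhr and Nr5a1 are named after their values were seen. The summed hypothalamus markers were 53.7 in the CA3 library of R2233, rank 24 from the highest but rank 63 in the Ion Proton table, and ranged from 12.3 to 140 in young, 9.31 to 105 in unimpaired and 8.49 to 89.2 in impaired rats in the Illumina table. Of these 8 genes Agrp, Hdc, Hcrt and Avp exceeded 3 reads in 80, 69, 61 and 56 Illumina libraries, young rats included, and Oxt and Kiss1 in 4 and 2, while Npvf exceeded 3 reads in 0 libraries and Pmch was at 0 in every library of both poly-A tables. Choroid plexus markers summed to 3034 in the CA3 library of R2233 and to 11937 in the CA1 library of rat R2231, ranks 9 and 5, and leptomeningeal markers to 221 and 3043, ranks 54 and 2. Blood markers summed to 1611 and 2208, ranks 54 and 42. In the groups, choroid plexus markers ranged from 16.8 to 13189 in young, 16.4 to 130843 in unimpaired and 13.9 to 156219 in impaired rats, and leptomeningeal markers from 86.8 to 7315, 64.9 to 949 and 110 to 3043. The part of tissue from outside the hippocampus in the Prl and Gh1 values was not tested, and in bulk tissue more cells of a type and more RNA per cell cannot be told apart.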

How the data were processed

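RNA of CA1, CA3 and DG from 34 rats was measured in 3 tables. Per the labels and the study's methods, Illumina reads were trimmed with cutadapt 1.8.3, aligned to rn5 with STAR 2.5 and counted per gene with featureCounts 1.4.4, and Ion Proton reads were mapped by TopHat2 with Bowtie2 to the same build and counted by the same featureCounts version. Labels and methods name different TruSeq kits, so use of strand is unknown. The aligner and counter of the WT table are not given in the sources used here. The deposited values (unit signal) are gene counts that the authors divided by 1 size factor per library, and each is a whole multiple of what 1 read is worth (100% of values within 0.01 reads), so whole reads were recovered. All columns matched a sample.

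Tests used limma 3.58.1 in R 4.3.3 on log2(value + 1) in genes with a mean of at least 10, with Benjamini-Hochberg adjustment over all genes, each table on its own, in place of the authors' DESeq2 (1.16.1 in the submitters' processing notes, another version in the methods), and fold changes on this scale understate those of low genes. Subfield fits held 102 libraries, age fits 34 and cognition fits 24. edgeR 4.0.16 on recovered reads was an alternative. The fits were also run on simulated reads of independent libraries, with changes placed only in genes with an expected count of at least 10. That run does not cover the sparse members or libraries that share a rat. Each rat gave 1 sample per subfield, so the rat is the replicate. The rats pair the subfields, because the 3 libraries of a number come from 1 animal, and a fit with the rat as a replicate block was an alternative. Named genes were the 6 members, the 10 genes most like Prl and Pomc, pathway genes called by age or cognition, the 3 called pathway genes with the largest subfield differences, and the libraries with the highest member values. The members, lists and tests were chosen with earlier results of these data known. RefSeq (GRCr8) gave promoters and gene overlaps only. Some genes of the pituitary list are not reported here.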

Additional observations from a re-analysis of the deposited data

Results flagged for a closer look

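In the Illumina table, 15 groups of 10 young libraries with any spread were searched for a library far from the other 9, using Dixon's test at the 95% level. It picked 7 of them, each for its highest library. The usual chance rate of about 1 in 20 groups does not apply to counts this low, and in 3 groups (Prl in CA1 and DG, Gh1 in CA3) a single library held the only read, so the test had to pick it. For Prl these were 0.440 normalised reads in CA1 and 0.315 in DG, and for Gh1 1.42 in CA1 and 0.311 in CA3, each of which is a single read beside values at or near 0. For Cga the library stood at 2.43 in DG. For Pomc it stood at 29.3 in CA3, in R9876, whose CA3 library had markers nearer to another subfield and held the highest leptomeningeal sum, 7315, and for Lhb at 12.0 in DG of the same rat.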

How the results depend on the processing

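Of the 50 Illumina group means of members above 0, 19, all of Prl, Gh1 or Cga, moved by over 1.5 times without the highest library. In impaired CA3, where that library was R2233, Prl fell from 42.7 to 12.7 and Gh1 from 16.1 to 4.02. With total reads in place of the size factors 0 of 50 moved that far, and without the libraries nearer to another subfield 1 of 8 Prl means did (unimpaired CA1, from 1.77 to 1.13). The count of 4 rats with Prl above 3 reads in every library of every table was 7 with a floor of 0 reads, of which 2 were unimpaired (R2184 and R9869), and 3 with a floor of 10 reads, without R2235. Pomc in CA1 against DG changed sign, to 0.0052 on the log2 scale, without the libraries nearer to another subfield, a value near 0 in either fit. Counts of libraries with more than 3 reads moved in 26 of 36 cases under the floors of 0 and 10 reads. Some counts of calls over all genes also moved. CA1 against CA3 gave 1996 genes and 3116 without the libraries nearer to another subfield. Age in CA1 gave 118 and 187 with the number series as a covariate. Age in CA3 gave 56 (85.7% of them higher), with 157 by edgeR (38.2% of them higher), 87 with the number series and 26 without the doubtful libraries. Cognition in CA3 gave 3, with 5 with no filter, 7 with the number series and 1 without those libraries. Cognition in DG gave 17, with 28 by edgeR, 67 with the number series and 56 without those libraries. The cause was not tested. With the rat as a replicate block, subfield calls were 2240, 4142 and 4361 against 1996, 3739 and 3957, and no call on the 6 members, Drd2, Vip or Socs2 changed. Pomc in CA1 against CA3 then had a limma adjusted p of 0.0233 in the Illumina and 0.0508 in the Ion Proton table. The readings of members with no filter, their fits without doubtful libraries or with the block, and the likeness lists of Lhb and Tshb were chosen after seeing the data. Depth limits the members below Pomc, since 1 read was worth 0.306 to 4.25 normalised reads in the Illumina table.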
